A study of Mus musculus with 13 samples.

Results

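Mouse embryonic fibroblasts (MEFs) are primary cells grown from mid-gestation embryos, and the comparison described here is that of etoposide-senescent MEFs with control MEFs, both without Fucoidan-FV. Of the 13 RNA-Seq libraries of the series, 7 belong to it: 4 labelled as untreated WT MEFs (mice 4, 5 and 6, with libraries 5(1) and 5(2) for mouse 5) and 3 labelled as untreated senescent WT MEFs (mice 4, 5 and 6). All cells were labelled as wild type, and the sample titles name no transgene or deletion. The Methods describe WT MEFs as primary cells cultivated in 3% oxygen and do not give the oxygen during etoposide or recovery. Senescence was induced, according to the Methods, by exposure to 2 μM etoposide during 24 h and a recovery of 5 days without it, and RNA was extracted at the time point of the 12 h treatments. The other 6 libraries come from senescent MEFs given Fucoidan-FV. They entered the fit for the estimate of the spread between mice, and so also its filter and scaling. With them 15034 genes were tested, and 13709 in a fit of only the 2 groups. The sources used here do not give the days in culture, the passage or the density of the control MEFs at extraction, so these and the etoposide treatment cannot be told apart.

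Etoposide traps type II topoisomerases on DNA and so leaves double-strand breaks. The ATM and ATR kinases answer such breaks by stabilizing p53, and p53 induces p21 (Cdkn1a), which inhibits the cyclin-dependent kinases of G1 and S phase. Unphosphorylated RB family proteins then hold E2F factors in a repressive state, and the DREAM complex, which includes p107 or p130, represses genes of S phase through E2F sites and genes of mitosis through the CHR (cell cycle homology region) element. Cells that stay in this arrest for days become senescent, enlarge, accumulate lysosomes, lose lamin B1 and secrete cytokines, growth factors and proteases, the senescence-associated secretory phenotype (SASP).

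The libraries held 23764385 to 31278750 counts. Fibroblast markers summed to between 13958 and 17777 TPM in control and between 17965 and 21623 TPM in senescent libraries, and of 12 such markers 11 reached 1 TPM in at least 1 library. Macrophage markers summed to at most 5.17 TPM in control and 14.8 TPM in senescent libraries, epithelial markers to at most 2.55 and 1.85 TPM, and red cell markers to at most 0.08 TPM. Endothelial markers were at 1.24 to 3.98 TPM in control and 5.96 to 8.87 TPM in senescent libraries, without overlap and with 0 DEGs. Adipocyte markers were at 18.2 to 31.07 TPM in control and 15.69 to 27.15 TPM in senescent libraries, with overlap. Smooth muscle and pericyte markers were at 7025 to 9399 TPM in control and 7344 to 8658 TPM in senescent libraries, with 2 DEGs of 8 that rose. Chondrocyte and osteoblast markers were at 232 to 304 TPM in control and 103 to 128 TPM in senescent libraries, with 1 DEG that fell and no overlap. Col2a1 alone was at 209 to 275 TPM and 78.4 to 104 TPM. Neural markers were at 182 to 286 TPM in control and 220.0 to 259.8 TPM in senescent libraries, with overlap, and the largest were Nes and Tubb3. Skeletal muscle markers were at 165 to 258 TPM and 129 to 173 TPM, also with overlap. Acta1 alone was at 164.8 to 257.5 TPM and 127.6 to 172.2 TPM, and 10 of the 12 muscle markers stayed under 1 TPM in every library. The part of these cell types in the results below was not tested. Libraries also differed in the counts on genes whose whole sequence lies in 1 annotated transcript. Over 1199 such genes, the median deviation from the mean of all 13 libraries was −1.49 (log2) in control mouse 6, −1.18 in library 5(1), −0.85 in senescent mouse 5, and between 0.29 and 0.84 in the other 4 libraries compared here. Over 8539 genes whose sequence is mostly shared by several transcripts it ran from −0.12 to 0.18. These 3 libraries are said below to stand apart, and values without them are given where leaving them out ends the call of a named gene. List counts without them are given for some lists. The part of the library difference in any single result was not tested unless a value is given beside it.

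Of 15034 genes tested, 8.42% were differentially expressed genes (DEGs), which had an adjusted p under 0.05 in edgeR's quasi-likelihood test and an absolute log2 fold change over 1. This background was 4.47% for DEGs that were higher and 3.95% for DEGs that were lower in senescent MEFs, and the median log2 fold change of all tested genes was 0.07. The 2 groups did not overlap in 27.1% of tested genes, with all senescent values above the control values in 14.2% and below them in 12.9%. By adjusted p alone, 6.11% of genes were higher and 5.63% lower. The genes that rose had a median of 4.62 CPM in control MEFs and 16.4 CPM in senescent MEFs, whereas the genes that fell went from a median of 39.5 CPM to 9.68 CPM. Levels are in CPM, the counts of a gene scaled by library size and TMM factor and not by length, in the order of mice 4, 5 and 6, and folds are those of the fit. DEGs that rose took 1.41% to 1.49% of the counts of control MEFs and 4.24% to 4.43% of those of senescent MEFs, and DEGs that fell went from between 5.04% and 5.60% to between 1.91% and 1.96%. These genes were chosen on the same samples, so the shares describe the size of the change and test nothing. With the mouse as a block, since the same 3 mice gave both groups, 1137 genes were DEGs, and a fit of only the 2 groups without the Fucoidan-FV libraries gave 699 without and 174 with the block. The split between directions moved with a correction of each library for single-transcript share, gene length and GC content, from 53.1% of DEGs that rose to 42.8% (736 of 1718). Since whole cultures were sequenced, fewer cells of one kind and less RNA per cell cannot be told apart. DEGs made up 9.13% of 13447 protein-coding genes, 3.11% of 997 long noncoding RNAs and 0.948% of 422 pseudogenes, and 2.00% of the 1199 single-transcript genes.

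**Figure D1:**
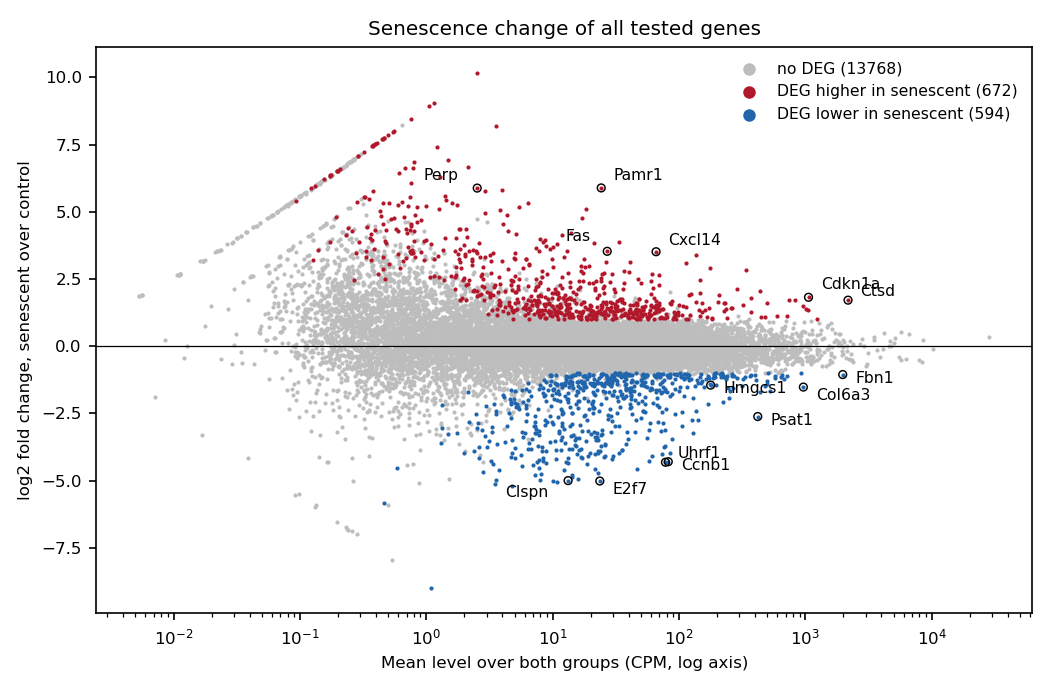
Each point is 1 of the 15034 tested genes, placed by its mean level over both groups (x, CPM on a log axis) and its log2 fold change in senescent over control MEFs (y), with the 672 DEGs that rose in red, the 594 that fell in blue and the others in grey. The labelled genes are described in the text, and the straight lines of points at the left are genes with no count in 1 group, for which a fitted fold change is not a bound.

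The genes were then grouped into 29 lists by their roles, which follow here in the order of the arrest itself, from p53 to replication, mitosis, chromatin and repair, and on to secretion, organelles and metabolism. In the plot of all lists, the 5 with the lowest medians were those of the spindle, mitotic entry, origin licensing, the kinetochore and homologous recombination, and the list with the highest median was that of the replication-dependent histones. The fit of only the 2 groups with the mouse as a block gave 174 DEGs in all. The lists of origin licensing, the fork, mitotic entry, the kinetochore and the spindle then held 8, 10, 20, 6 and 20 DEGs that fell. The p53 list held 4 that rose. In that fit 6 homologous recombination genes and 1 cholesterol gene fell, against 20 and 12 with all 4 groups and no block. The lists of histones, lysosomal genes, growth factors, proteases, Wnt and interferon genes held 3, 3, 2, 2, 1 and 0 that rose, against 13, 12, 11, 8, 7 and 7. Without the 3 libraries that stand apart, 13 p53 targets rose, against 17. Then 19, 26 and 36 genes fell in the licensing, fork and mitotic entry lists, against 22, 29 and 38. In the kinetochore and spindle lists 20 and 27 fell, against 23 and 33. In the lists of G1 cyclins and of the lamina 7 and 14 fell, against 10 and 18. In the growth factor, protease, matrix glycoprotein and Wnt lists 10, 6, 6 and 5 rose, against 11, 8, 7 and 7.

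**Figure D2:**
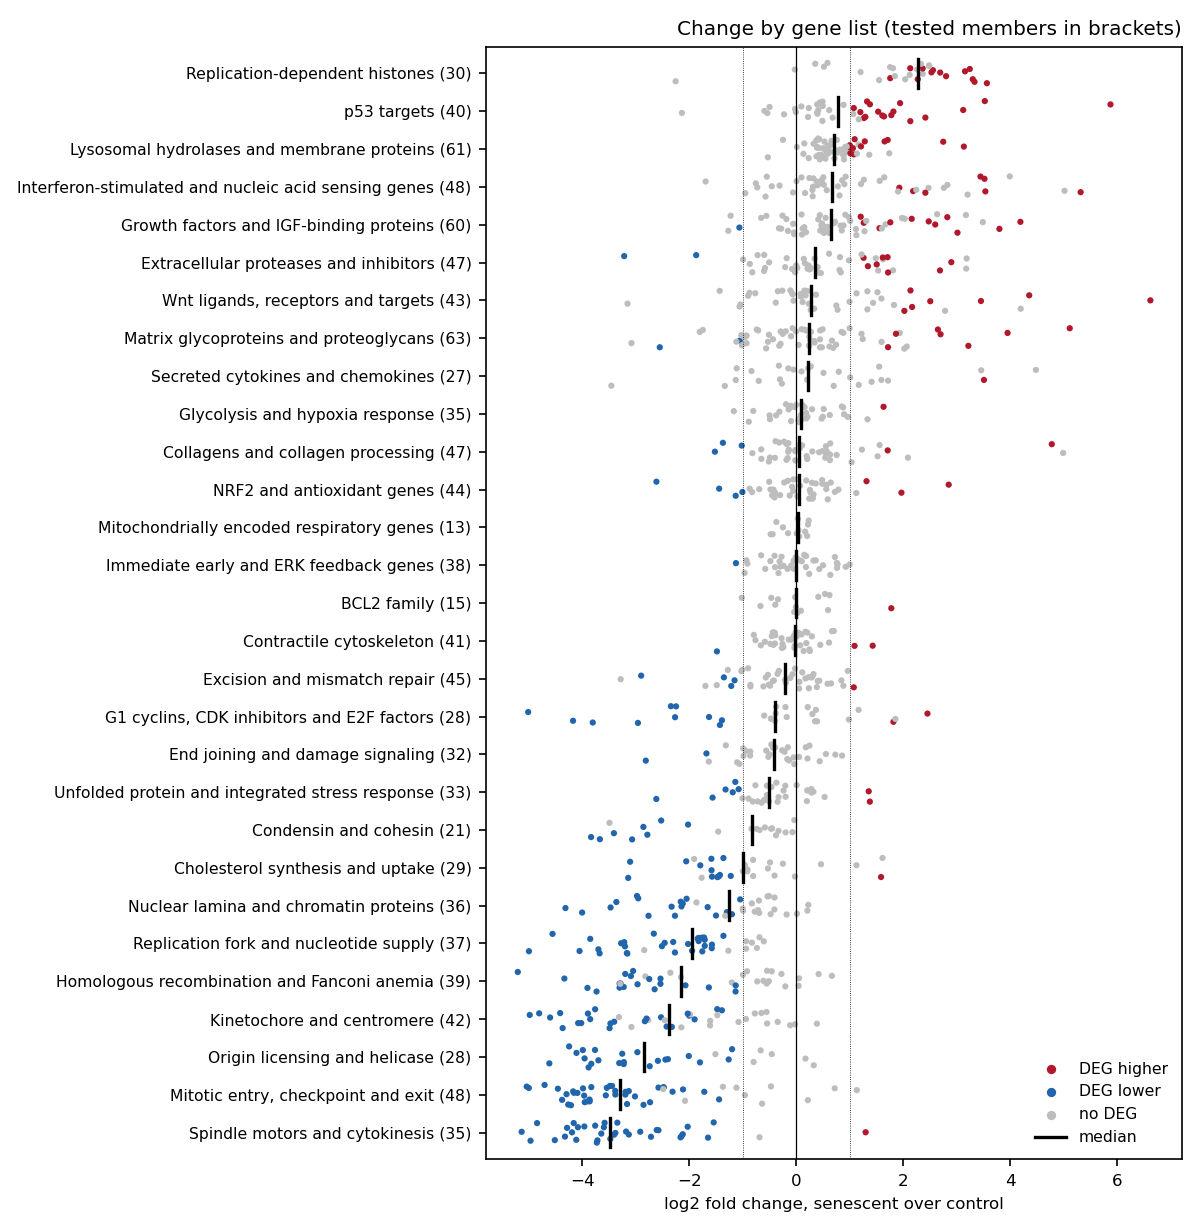
Each point is a tested member of 1 of 29 gene lists, placed by its log2 fold change in senescent over control MEFs (x), with DEGs that rose in red, DEGs that fell in blue, other members in grey and the median as a black bar. Medians run from −3.48 for spindle motors and cytokinesis to 2.27 for replication-dependent histones, and the dotted lines mark the DEG threshold of 1.

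Many targets of p53 rose. Of 40 tested p53 targets, 17 were DEGs that rose (42.5%, against 4.47% of all genes), 0 were DEGs that fell, and the median log2 fold change was 0.78. The log2 fold change was above 0 for 33 members and below 0 for 7, with a minimum of −2.14. Pcna, a p53 target that fell and is described below, is not among the 40. With each mouse left out the count that rose was 10 to 15, the lowest without control mouse 5. In a fit of only the 2 groups it was 10. The summed level of the list was 2512, 2748 and 2847 CPM in control MEFs and 6663, 6577 and 5988 CPM in senescent MEFs (CPM without TMM factors, as for all sums), 2.37-fold higher on average, with no overlap between the groups. Cdkn1a, which encodes p21 (ENSMUSG00000023067), was at 373, 504 and 527 CPM in control and 1569, 1866 and 1519.9 CPM in senescent MEFs, and it was 1 of the 5 DEGs that gained most CPM. Its promoter is shown for matches to the p53 half-site letters RRRCWWGYYY (R is A or G, W is A or T, Y is C or T) close upstream of the start. The sequence runs from 250 bases before to 30 bases after the start of the RefSeq promoter entry. It was located by an exact match to GRCm39 at chr17:29309703-29309982 on the plus strand. The matches, which begin 73 and 51 bases before the start, are in capitals. The stretch tgacatgttc, which directly follows the match at 51 bases, differs from these letters in its first base and so was not marked. Which of these stretches p53 binds was not tested.
Cdkn1a promoter: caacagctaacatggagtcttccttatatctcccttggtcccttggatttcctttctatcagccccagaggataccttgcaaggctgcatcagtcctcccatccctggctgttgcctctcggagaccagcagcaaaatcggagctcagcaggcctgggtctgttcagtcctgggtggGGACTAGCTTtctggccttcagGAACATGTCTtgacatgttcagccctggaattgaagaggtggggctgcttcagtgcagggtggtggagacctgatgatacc

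The other p53 targets spanned death receptors, p53 regulators and enzymes. Fas (ENSMUSG00000024778, chromosome 19, 34268001 to 34305173, plus strand), a death receptor, was at 4.59, 4.69 and 3.62 CPM in control MEFs and 43.5, 55.3 and 50.7 CPM in senescent MEFs. All 3 senescent values lay above all control values (log2 fold change 3.53 ± 0.24 (SE) with an adjusted p of 7.59e-06). Perp, a membrane protein of desmosomes and apoptosis, was at 0.127, 0.0982 and 0 CPM and 8.02, 2.46 and 4.49 CPM, a 58.9-fold increase from a low level (log2 fold change 5.88 ± 0.92 (SE) with an adjusted p of 0.00119), and its sequence lies in a single transcript. Dcxr, an enzyme of xylulose metabolism, rose 8.72-fold, from 5.1, 6.34 and 4.70 CPM to 36.7, 36.8 and 67.7 CPM (adjusted p = 3.23e-05). Mdm2, the ubiquitin ligase that degrades p53, was at 125, 143 and 230.3 CPM in control MEFs and 510.2, 590.3 and 342 CPM in senescent MEFs (log2 fold change 1.53 ± 0.25 (SE) with an adjusted p of 0.00174). Control mouse 6 was the highest control and senescent mouse 6 the lowest senescent sample, and the groups did not overlap. Pmaip1, which encodes the BH3-only protein NOXA, rose 3.43-fold (adjusted p = 0.0115, 0.0638 with control mouse 5 left out and 0.0877 in the fit of only the 2 groups). It was the 1 DEG among 15 tested genes of the BCL2 family, in which Bcl2 (log2 fold change −0.02) and the death effector Bax (0.41, adjusted p = 0.289) were not DEGs and the survival gene Bcl2l1 rose 1.46-fold (adjusted p = 0.0442) without reaching the fold threshold. Zmat3, an RNA-binding p53 target, had a log2 fold change of 0.39 (adjusted p = 0.298).

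**Figure D3:**
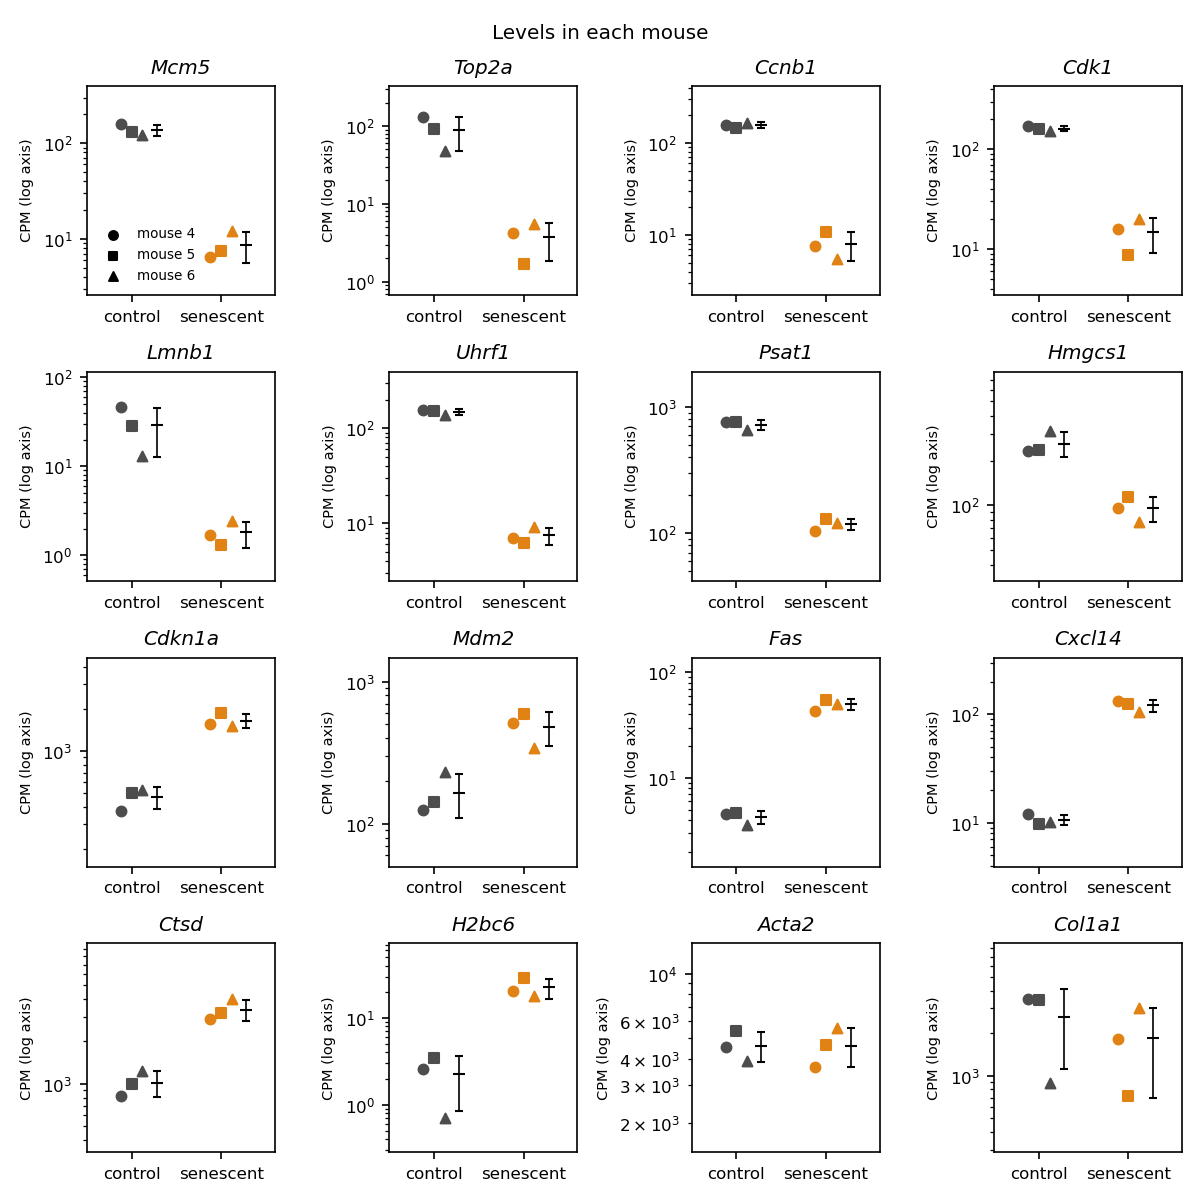
Level of 16 genes in each mouse (y, CPM on a log axis whose range differs between panels), with control MEFs in grey, senescent MEFs in orange, a symbol for each mouse and the mean ± SD of the 3 mice beside them. Control and senescent values do not overlap in the panels from Mcm5 to H2bc6, and they overlap for Acta2 and Col1a1.

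Among 28 tested G1 cyclins, CDK inhibitors and E2F factors, 2 rose (Cdkn1a and Cdkn2a), 10 fell and 16 were not DEGs (median log2 fold change −0.39). The summed level of the list was nevertheless 1.47-fold higher, at 2436, 2395 and 2224 CPM in control and 3607, 3394 and 3339 CPM in senescent MEFs, and Cdkn1a itself is in the sum. E2f7, an atypical E2F that represses E2F targets, was at 55.2, 45.0 and 37.4 CPM in control and 2.56, 0.776 and 0.883 CPM in senescent MEFs (log2 fold change −5.01 ± 0.60 (SE) with an adjusted p of 0.000204), the largest decrease of the list. Its relative E2f8 fell 14-fold (adjusted p = 0.0115, and 0.0954 without the 3 libraries that stand apart), and Ccne2, which encodes cyclin E2, went from 52.6, 49.1 and 76.1 CPM to 7.89, 9.66 and 5.30 CPM, 7.78-fold lower (log2 fold change −2.96 ± 0.32 (SE) with an adjusted p of 9.78e-05). In contrast, E2f1, an activator of S phase genes, was at 59.7, 54.2 and 54.8 CPM and 45.9, 44.5 and 38.1 CPM (log2 fold change −0.39, adjusted p = 0.188), which did not pass the test. The cyclin D1 gene Ccnd1 was at 143, 77.0 and 64.5 CPM and 277, 172 and 115 CPM (log2 fold change 0.99, adjusted p = 0.0809), with overlapping groups. Within mice 4, 5 and 6 its log2 differences were 0.95, 1.15 and 0.83, and with the mouse as a block its adjusted p was 0.00978, under the fold threshold. Cdkn2b, the p15 gene beside Cdkn2a and a single-transcript gene, was at 14.9, 20.6 and 4.28 CPM and 50.1, 17.1 and 77.5 CPM, and senescent mouse 5 lay within the control range (adjusted p = 0.112).

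DNA replication genes fell as a group. Of 28 origin licensing and helicase genes, 22 were DEGs that fell and 0 rose, with a median log2 fold change of −2.85, against 3.95% of all genes that fell. Of 37 genes of the replication fork and of nucleotide supply, 29 fell, 0 rose and all 37 had a log2 fold change below 0 (median −1.95). The summed level of the licensing list was 1451, 1163 and 1155 CPM in control and 284, 319.8 and 325 CPM in senescent MEFs, 4.06-fold lower. The fork list went from 2224, 1783 and 1547 CPM to 470.3, 521 and 690.0 CPM. Neither sum overlapped between the groups. The 6 licensing genes that were not DEGs were Orc2, Orc3, Orc4 and Orc5 of the origin recognition complex, with log2 fold changes of −0.80, 0.18, 0.33 and −0.46, and Gins3 and Gins4 of the CMG helicase (−1.51 and −0.66).

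Single replication genes fell by up to 32.0-fold, which was the value for Clspn. Mcm5 (ENSMUSG00000005410, chromosome 8, 75836140 to 75856231, plus strand), a subunit of the replicative helicase, was at 159, 132 and 122 CPM in control and 6.42, 7.46 and 12.1 CPM in senescent MEFs (log2 fold change −3.99 ± 0.48 (SE) with an adjusted p of 0.000211). Cdc6, which loads the helicase, fell 14.2-fold, and Mcm10 and Ticrr, which act in its activation, fell 17.3-fold and 24.5-fold. Clspn, which encodes the checkpoint adaptor claspin, was at 30.3, 21.5 and 25.4 CPM and 0.895, 0.862 and 0.646 CPM (log2 fold change −5.00 ± 0.43 (SE) with an adjusted p of 2.13e-05). Top2a, the type II topoisomerase of dividing cells and a target of etoposide, was at 131, 90.4 and 47.9 CPM and 4.19, 1.68 and 5.50 CPM (log2 fold change −4.56 ± 0.61 (SE) with an adjusted p of 0.0004). Rrm2, the ribonucleotide reductase subunit that limits deoxynucleotide supply, fell 5.50-fold and Tk1, thymidine kinase, 12.8-fold. Pcna, the sliding clamp and also a p53 target, fell less, 3.27-fold, from 127, 107 and 103 CPM to 22.8, 30.8 and 49.3 CPM (adjusted p = 0.000833). The helicases Dna2 and Pif1 fell 27.6-fold and 27.0-fold.

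The Mcm5 promoter is shown because it holds an E2F element. Its sequence runs from 250 bases before to 30 bases after the RefSeq start, at chr8:75835887-75836166 on the plus strand of GRCm39 by exact match. The E2F element that begins 149 bases before the start on the opposite strand and 3 CCAAT boxes, to which the factor NF-Y is known to bind, are in capitals.
Mcm5 promoter: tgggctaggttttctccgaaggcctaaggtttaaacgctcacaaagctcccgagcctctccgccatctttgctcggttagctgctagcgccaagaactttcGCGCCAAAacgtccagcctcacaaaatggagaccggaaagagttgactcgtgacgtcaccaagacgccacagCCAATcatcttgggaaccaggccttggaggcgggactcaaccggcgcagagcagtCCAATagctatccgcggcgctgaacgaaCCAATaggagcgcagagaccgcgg

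Many genes of mitosis fell. Of 48 genes of mitotic entry, checkpoint and exit, 38 fell and 0 rose (median log2 fold change −3.29). Of 35 genes of spindle motors and cytokinesis, 33 fell (median −3.48). The exceptions were Ckap5, a microtubule polymerase (−0.69, adjusted p = 0.164), and Psrc1, a microtubule-binding protein, which was the 1 member that rose (1.3, adjusted p = 0.000446). Among 42 kinetochore and centromere genes 23 fell and 0 rose (median −2.37), and the members that were not DEGs included inner kinetochore genes such as Cenpc1 (−0.02), Cenpt (−0.35) and Cenpx (0.39). The sum of the mitotic entry list was 2701, 2319 and 2036 CPM in control and 606, 529.7 and 757 CPM in senescent MEFs, 3.73-fold lower, and the sum of the spindle list 1992, 1699.9 and 1743 CPM and 486, 450.2 and 434 CPM, 3.97-fold lower. Both sums were separated between the groups.

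Cyclin B1 (Ccnb1, ENSMUSG00000041431, chromosome 13, 100915153 to 100923116, minus strand), which drives entry into mitosis with Cdk1, was at 158, 145 and 167 CPM in control and 7.51, 10.9 and 5.54 CPM in senescent MEFs (log2 fold change −4.29 ± 0.64 (SE) with an adjusted p of 0.000871). Cdk1 was at 172, 158 and 153 CPM and 15.8, 8.62 and 19.9 CPM, 10.9-fold lower (adjusted p = 6.46e-05). Foxm1, a transcription factor of mitotic genes, fell 14.6-fold and the polo-like kinase gene Plk1 20.8-fold. In the spindle, the kinesin genes Kif11, Kif14 and Kif20a fell 22.9-fold, 28.8-fold and 8.75-fold. Cenpf, a kinetochore protein of G2 and mitosis (ENSMUSG00000026605, chromosome 1, 189372752 to 189420315, minus strand), was at 18, 13 and 14.8 CPM and 0.607, 0.129 and 0.680 CPM (log2 fold change −4.98 ± 0.77 (SE) with an adjusted p of 0.00115). Ndc80, which binds microtubules at the kinetochore, fell 16.2-fold, and the centromeric histone gene Cenpa 11.2-fold. Nek2 (a centrosomal kinase), Troap (a spindle protein) and Espl1 (separase, which opens cohesin) fell 32.0-fold, 32.9-fold and 26.1-fold. Troap was not a DEG without the 3 libraries that stand apart (adjusted p = 0.0588).

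Promoters of many of these genes hold short sequence elements. The Cenpf and Ccnb1 promoters are shown for their CCAAT boxes and, in Cenpf, a CHR element. Both run from 250 bases before to 30 bases after the RefSeq start and were matched exactly to the minus strand of GRCm39, Cenpf at chr1:189420254-189420533 and Ccnb1 at chr13:100922965-100923244. In Cenpf the capitals mark CCAAT boxes that begin 132 and 71 bases before the start and the CHR letters that begin at base 3 of the transcript, and in Ccnb1 CCAAT boxes 99 and 67 bases before the start. The Cenpf promoter was chosen after its values were seen, as the mitotic DEG with the largest decrease, at 10 CPM or more, that has both elements within the stretch.
Cenpf promoter: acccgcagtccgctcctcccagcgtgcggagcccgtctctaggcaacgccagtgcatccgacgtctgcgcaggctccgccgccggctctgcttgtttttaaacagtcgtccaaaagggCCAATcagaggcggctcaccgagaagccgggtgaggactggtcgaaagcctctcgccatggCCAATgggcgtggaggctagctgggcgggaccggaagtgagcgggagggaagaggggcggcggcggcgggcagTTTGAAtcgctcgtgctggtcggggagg
Ccnb1 promoter: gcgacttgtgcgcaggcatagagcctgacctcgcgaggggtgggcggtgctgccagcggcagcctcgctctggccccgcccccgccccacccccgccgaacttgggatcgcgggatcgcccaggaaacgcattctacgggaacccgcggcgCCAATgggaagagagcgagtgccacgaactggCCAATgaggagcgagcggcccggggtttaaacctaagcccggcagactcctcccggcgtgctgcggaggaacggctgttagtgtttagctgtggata

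The windows searched ran from 250 bases before to 50 bases after each RefSeq start (table of build GRCm38.p6), on both strands. The CHR letters TTTGAA were in 17.9% of all 32851 promoters and 12.1% of those of tested genes, and in 66.7% of the 81 promoters of DEGs that fell in the 3 lists of mitotic entry, kinetochore and spindle. CCAAT was in 37.4% of all promoters, 37.5% of those of tested genes and 70.4% of the same 81. Both elements together were in 6.95%, 4.89% and 53.1%. The E2F letters TTTCCCGC or TTTGGCGC share at most 1 letter at an end with the other elements. They were in 1.56% of all promoters, 2.74% of those of tested genes and 7.41% of the mitotic group. Of the 48 promoters of DEGs that fell in the 2 replication lists, 25.0% held the E2F letters and 20.8% the CHR letters. Among 452 promoters of DEGs that fell outside these lists, CHR letters were in 18.8%, CCAAT in 46.0% and E2F letters in 7.96%. DEGs that rose were at 11.4%, 32.8% and 0.600% for the same elements. A p53 half-site was in 9.90% of their 667 promoters and in 7.40% of the 581 promoters of DEGs that fell. It was in 8.36% of all promoters and 7.05% of those of tested genes. These shares are descriptions without a test, and promoters of 1 gene overlap. No share was taken for list members that did not fall, so membership of a list and the decrease cannot be told apart here. Of the tested genes 10859 were matched by symbol.

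**Figure D4:**
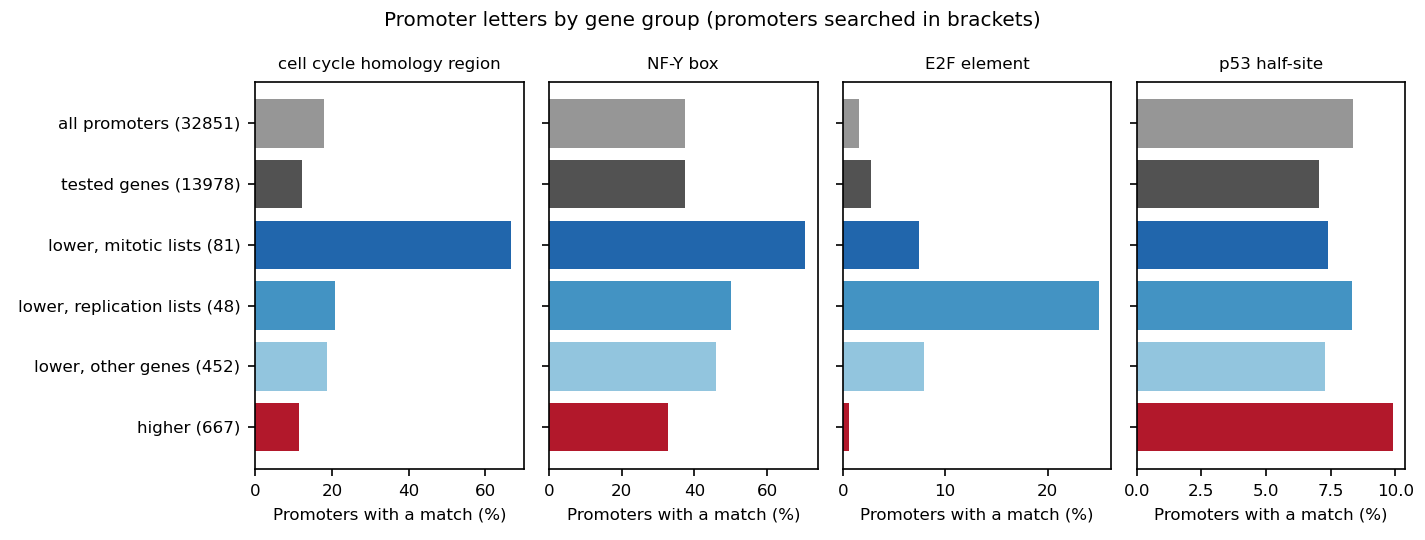
Share of promoters (x, percent, from 0) that hold a cell cycle homology region, an NF-Y box (CCAAT), an E2F element or a p53 half-site, for all promoters, those of tested genes, DEGs that fell in the mitotic lists, in the replication lists or elsewhere, and DEGs that rose. The mitotic group stands highest for the first 2 elements (66.7% and 70.4%) and the replication group for E2F elements (25.0%).

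Proteins that package chromosomes fell in part. Of 21 condensin and cohesin genes 8 fell, and 7 of these encode condensin subunits. Ncapd2, a condensin I subunit, was at 116, 98.8 and 91.7 CPM in control and 7.73, 9.53 and 11.6 CPM in senescent MEFs (log2 fold change −3.41 ± 0.27 (SE) with an adjusted p of 1.34e-05), and Ncapg2 of condensin II fell 14.3-fold. Smc1a, a core subunit of cohesin, fell 1.78-fold (log2 fold change −0.84, adjusted p = 0.00811), under the fold threshold. Of 36 genes of the nuclear lamina and of chromatin proteins 18 fell and 0 rose (median −1.25). Lmnb1, which encodes lamin B1, was at 46.1, 28.3 and 13 CPM and 1.69, 1.29 and 2.45 CPM (log2 fold change −4.0 ± 0.53 (SE) with an adjusted p of 0.000408), while Lmna, the gene of lamins A and C, had a log2 fold change of 0.23 (adjusted p = 0.534). Uhrf1, which recruits the maintenance DNA methyltransferase, was at 157, 153 and 137 CPM and 7.0, 6.21 and 9.21 CPM (log2 fold change −4.31 ± 0.48 (SE) with an adjusted p of 0.000131). Hells, a chromatin remodeler of DNA methylation, fell 11.1-fold, the architectural protein gene Hmgb2 10.3-fold, and Ezh2, the methyltransferase of Polycomb, 4.35-fold. Its partners Suz12 and Eed had log2 fold changes of −0.99 (adjusted p = 0.062) and 0.21 (adjusted p = 0.596), and neither was a DEG.

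Replication-dependent histone genes, whose messages normally accumulate in S phase and end in a stem-loop rather than a poly(A) tail, had higher counts in senescent MEFs although the replication genes above fell. Total RNA libraries such as these hold messages without a poly(A) tail. Of 64 histone genes in the files 30 were tested, 13 were DEGs that rose and 0 fell. The count was 6 to 13 with each mouse left out, 6 when either control or senescent mouse 4 was the one left out, 8 with library 5(2) alone for control mouse 5, 8 without the 3 libraries that stand apart, 6 in a fit of only the 2 groups and 10 with the mouse as a block. Summed over all 64 genes, tested or not, the level was 79.5, 93.8 and 58.0 CPM in control and 333, 229.8 and 485 CPM in senescent MEFs, 4.53-fold higher. H2bc6, an H2B gene, was at 2.59, 3.42 and 0.705 CPM and 20.4, 29.1 and 17.9 CPM (log2 fold change 3.30 ± 0.46 (SE) with an adjusted p of 0.000564). H4c18, an H4 gene that is a single transcript, was at 0.297, 0.667 and 0.0470 CPM and 4.54, 4.87 and 1.63 CPM (adjusted p = 0.00693, and 0.0789 in the fit of only the 2 groups). H1f4, a linker histone gene, was at 0.127, 0.196 and 0 CPM and 2.65, 0.776 and 0.883 CPM (adjusted p = 0.0239), with adjusted p of 0.0817 with control mouse 4 left out and 0.104 with senescent mouse 4 left out, and of 0.118 without the 3 libraries that stand apart. Histone genes are near-identical copies among which RSEM divides reads, so values of single members are uncertain.

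The library difference described above touches these short genes. Libraries 5(1) and 5(2) of control mouse 5 had summed histone levels of 49.5 and 149 CPM, with single-transcript deviations of −1.18 and 0.84. Senescent mouse 5, with a deviation of −0.85, had 229.8 CPM, above each control library. The levels of the other libraries with positive deviations were 79.5 CPM for control mouse 4, and 333 and 485 CPM for senescent mice 4 and 6. What part of the change follows the library difference was not tested.

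**Figure D5:**
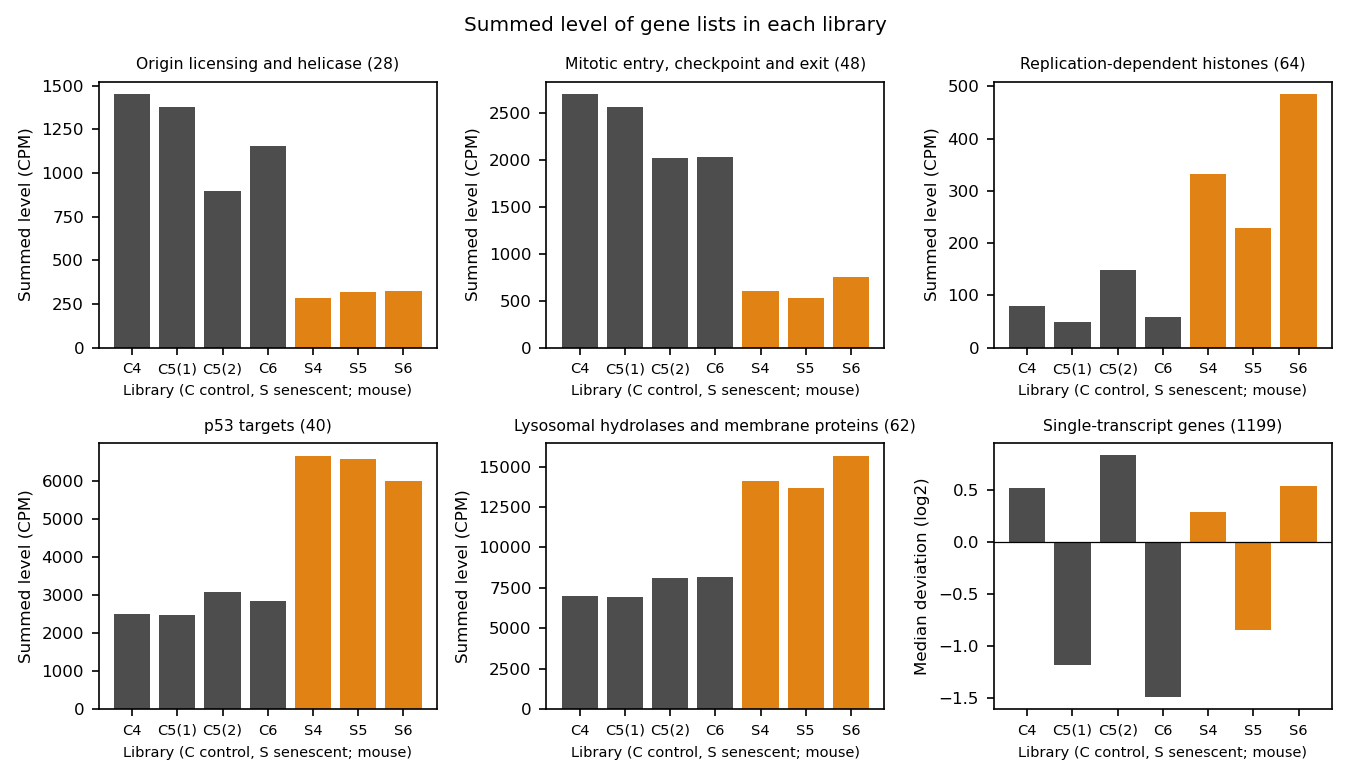
Summed level of 5 gene lists in each library (y, CPM from 0, all members counted), with control MEFs (C) in grey and senescent MEFs (S) in orange, and, at the lower right, the median deviation of 1199 single-transcript genes (log2). Licensing and mitotic sums are lower and p53, lysosome and histone sums higher in every senescent library, and the 2 libraries of control mouse 5 differ in the histone sum (49.5 and 149 CPM) and in the deviation (−1.18 and 0.84).

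Fewer DNA repair genes fell outside homologous recombination, by counts that depended on the fit. Of 39 tested genes of homologous recombination and the Fanconi anemia pathway 20 fell and 0 rose (median −2.15), 13 without senescent mouse 4 and 12 without the 3 libraries that stand apart. Brca1, which acts in the choice and the progress of recombination, was at 14.1, 9.52 and 7.38 CPM in control and 0.671, 1.77 and 0.951 CPM in senescent MEFs, 9.17-fold lower (adjusted p = 0.00274). Nbn, a sensor of breaks, was at 32.0, 29.6 and 26.7 CPM and 22, 29.2 and 25.6 CPM (log2 fold change −0.20, adjusted p = 0.62). In comparison, 2 of 32 genes of end joining and damage signaling fell (6.25%, against 3.95% of all genes, median −0.41). These were Chek1, the S phase checkpoint kinase (7.02-fold lower, adjusted p = 0.00331, and 0.0544 without the 3 libraries that stand apart), and Topbp1, an activator of ATR (3.20-fold lower, adjusted p = 0.00259). The count was 4 without senescent mouse 5 and 4 without senescent mouse 6, 5 in DESeq2, 10 with the correction for single-transcript share, length and GC content and 8 with that correction and the block. The end-joining gene Xrcc5, a single-transcript gene, was at 7.73, 6.03 and 1.64 CPM and 4.79, 2.28 and 6.97 CPM, and Atm at 28.6, 29.6 and 50.3 CPM and 26.5, 31.0 and 2.41 CPM, where senescent mouse 6 had the lowest value and mouse 5 lay within the control range. Of 45 genes of excision and mismatch repair 4 fell (8.89%, against 3.95% of all genes, median −0.21). Without the 3 libraries that stand apart or in a fit of only the 2 groups, 2 did. Ung, which removes uracil from DNA, fell 7.46-fold (adjusted p = 0.00266) and Tdg, a thymine glycosylase, 2.55-fold (adjusted p = 0.000576). The mismatch repair gene Pms2 fell 2.32-fold (adjusted p = 0.0252). Its adjusted p was 0.0554 with control mouse 5 left out, 0.0569 with control mouse 6 left out and 0.0833 with senescent mouse 4 left out, and 0.0696 without the 3 libraries that stand apart. Ercc5, an excision nuclease that is also a p53 target, rose (1.08), though no gene of the list did with control mouse 5 or senescent mouse 5 left out, whereas Xpc (0.06) and Ercc1 (−0.02) were not DEGs.

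Most lysosomal genes had small positive changes. Of 61 tested hydrolases and membrane proteins of the lysosome, 59 had a log2 fold change above 0, with a median of 0.72. Of the 61, 12 were DEGs that rose (19.7%, against 4.47% of all genes) and 0 fell. The count was 6 to 17 with each mouse left out, the lowest without control mouse 4, and 7 in a fit of only the 2 groups. The summed level was 6966, 7466 and 8169 CPM in control and 14084, 13642 and 15670.3 CPM in senescent MEFs, 1.92-fold higher, and the groups were apart. Ctsd, the aspartic protease cathepsin D, gained the most CPM of all DEGs, from 817, 995 and 1242 CPM to 2869, 3172 and 3969 CPM (log2 fold change 1.71 ± 0.24 (SE) with an adjusted p of 0.000571). Ctsf, cathepsin F, rose 8.80-fold, from 8.63, 10.3 and 5.87 CPM to 59.5, 74.4 and 85.3 CPM (adjusted p = 2.13e-05), and the membrane glycoprotein gene Gpnmb 6.73-fold (adjusted p = 0.00119). Glb1, which encodes the β-galactosidase whose activity is stained as a senescence marker, was at 55.1, 65.1 and 85.5 CPM and 108, 121 and 159 CPM. It rose 1.89-fold (log2 fold change 0.92, adjusted p = 0.0135), just under the fold threshold, and its groups did not overlap. Fuca1, an α-fucosidase, was at 21.5, 17.6 and 9.59 CPM and 33.1, 20.7 and 71.9 CPM, and senescent mouse 5 lay inside the control range (adjusted p = 0.0694).

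Secreted proteins changed by class. Of 44 cytokine and chemokine genes 27 were tested and 1 was a DEG, a share of 3.70% against 8.42% of all genes. That gene was Cxcl14 (ENSMUSG00000021508, chromosome 13, 56436352 to 56444603, minus strand), a chemokine of the CXC family, at 12, 9.80 and 10.1 CPM in control and 134, 126 and 104 CPM in senescent MEFs (log2 fold change 3.51 ± 0.20 (SE) with an adjusted p of 1.87e-06). The classical SASP cytokine Il6 was at 0.425, 2.10 and 4.61 CPM and 2.59, 1.77 and 5.78 CPM, and the monocyte attractant Ccl2 at 11.1, 8.64 and 11.4 CPM and 17.5, 10.6 and 9.38 CPM. Both overlapped between the groups (adjusted p = 0.744 and 0.697). Csf1, the macrophage growth factor, was at 2415, 2024 and 2193 CPM and 1696, 2103 and 1577 CPM (log2 fold change −0.30, adjusted p = 0.36). Cxcl1, a neutrophil attractant, was under 1 CPM in every sample.

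Of 60 tested growth factors and IGF-binding proteins 11 rose (18.3%, against 4.47% of all genes) and 1 fell (median 0.66). The 1 that fell was the guidance factor Sema3e (adjusted p = 0.0466), and 0 fell with control mouse 5 or 6 or any senescent mouse left out, with the mouse as a block, in a fit of only the 2 groups or without the 3 libraries that stand apart. The count that rose was 5 to 12 with each mouse left out, with 6 without control mouse 5, 5 without senescent mouse 4 and 6 without senescent mouse 5, and it was 3 in a fit of only the 2 groups. Bmp4, a morphogen of the TGF-β superfamily, was at 2.00, 2.20 and 0 CPM and 26.5, 24.7 and 29.1 CPM (log2 fold change 4.19 ± 0.75 (SE) with an adjusted p of 0.00274). Angpt1, a ligand of the endothelial receptor Tie2, was at 0.722, 0.609 and 0.141 CPM and 7.03, 2.97 and 2.31 CPM, 8.10-fold higher (adjusted p = 0.00328, and 0.0693 in the fit of only the 2 groups). Inhba, the activin A gene, was at 504, 435 and 575 CPM and 791, 673 and 181 CPM, where senescent mouse 6 lay below and mice 4 and 5 above the control range (adjusted p = 0.91). Areg, an EGF receptor ligand, had 13 counts over the control and 7 over the senescent libraries and was not tested. Among 47 proteases and inhibitors 8 rose (17%) and 2 fell (4.26%, near the 3.95% of all genes), and 4 rose in a fit of only the 2 groups. Timp2, an inhibitor of metalloproteinases, was at 605, 501 and 379 CPM and 1532, 1186 and 1505 CPM (log2 fold change 1.51 ± 0.20 (SE) with an adjusted p of 0.000437), while Timp1 was at 1057, 959 and 1115 CPM and 1139.9, 1179 and 2479 CPM (adjusted p = 0.168). Adam12, a membrane protease, fell 3.66-fold, from 175, 168 and 176 CPM to 55.6, 60.9 and 25.6 CPM (adjusted p = 0.00221). Mmp3, a stromelysin, stayed under 1 CPM in every sample.

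DEGs among collagens and contractile genes were about as frequent as among all genes (4.47% higher and 3.95% lower). Of 47 tested collagen and collagen-processing genes 2 rose (4.26%) and 3 fell (6.38%), with a median of 0.06, against 0.07 for all genes. Of 41 contractile genes 2 rose (4.88%) and 1 fell (2.44%), with a median of −0.03, and 0 rose without the 3 libraries that stand apart. With control mouse 4, senescent mouse 4 or senescent mouse 5 left out, 1 gene of each list rose, and without control mouse 6 also 1 contractile gene. In a fit of only the 2 groups 1 collagen gene rose and 1 fell. Col1a1, the main fibrillar collagen, was at 3481, 3443 and 887 CPM in control and 1822, 715 and 3024 CPM in senescent MEFs, a spread within each group that exceeded the difference between them (adjusted p = 0.682). Its low values were those of control mouse 6 and senescent mouse 5. The basement membrane gene Col4a1 was at 2117, 2812 and 3783 CPM and 2494, 3416 and 2777 CPM. Acta2, smooth muscle actin, was at 4522, 5374 and 3907 CPM and 3639, 4623 and 5543 CPM, and the groups overlapped.

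Of 63 tested matrix glycoproteins and proteoglycans 7 rose (11.1%, against 4.47% of all genes) and 2 fell (3.17%, against 3.95%), with a median of 0.24. With the mouse as a block or with control mouse 5 or senescent mouse 4 left out, 1 fell. Col10a1, a collagen of hypertrophic cartilage, was at 2.25, 1.12 and 0.188 CPM and 47.2, 14.4 and 37.0 CPM (log2 fold change 4.78 ± 0.77 (SE) with an adjusted p of 0.0015). The small leucine-rich proteoglycan genes Prelp and Dcn rose from 2.17, 0.903 and 0 CPM to 71.5, 28.1 and 7.71 CPM and from 1.57, 0.726 and 0.893 CPM to 13.1, 22.9 and 12.7 CPM (adjusted p = 0.0042 and 0.00215), and Dcn, the decorin gene, was thus low in control MEFs although it is a marker of adult fibroblasts. Efemp1, a fibulin, rose 6.5-fold (adjusted p = 0.0033). Fbn1, which encodes the microfibril protein fibrillin-1, lost the most CPM of all DEGs, from 2144, 2608 and 3253 CPM to 1347, 1713 and 795 CPM (log2 fold change −1.05, adjusted p = 0.0368). With the mouse as a block its adjusted p was 0.0712, and it was not a DEG in 4 of the 6 fits that left out 1 mouse, with adjusted p of 0.0562 with control mouse 5 left out, 0.0774 with control mouse 6 left out, 0.0572 with senescent mouse 4 left out and 0.034 with senescent mouse 6 left out, the last of which missed the fold threshold, or in the fit of only the 2 groups (0.0949). Col6a3, of the microfibrillar collagen VI, fell from 1754, 1349 and 1189 CPM to 749, 532 and 217 CPM (log2 fold change −1.52 ± 0.38 (SE) with an adjusted p of 0.0209), with adjusted p of 0.077 with control mouse 4 left out and 0.0572 with senescent mouse 5 left out, of 0.13 without the 3 libraries that stand apart and of 0.0769 with only the 2 groups. Fn1, the fibronectin gene, was at 18163, 25061 and 32788 CPM and 34821, 42455 and 18650.5 CPM (adjusted p = 0.548). Of the contractile genes, Myh11, a smooth muscle myosin, rose 2.7-fold (adjusted p = 0.00488) and Tagln2, a transgelin, fell 2.79-fold (adjusted p = 0.00341). Myh11 was not a DEG without the 3 libraries that stand apart (adjusted p = 0.0514).

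Interferon and Wnt genes rose in part. Of 48 tested interferon-stimulated and nucleic acid sensing genes 7 rose and 0 fell (14.6%, median 0.68), with 3 to 8 when each mouse was left out, the lowest without control mouse 4, 3 without the 3 libraries that stand apart and 2 in a fit of only the 2 groups. Tap1, a peptide transporter of antigen presentation and also a p53 target, was at 5.91, 6.48 and 2.77 CPM in control and 30.2, 26.5 and 24.7 CPM in senescent MEFs (log2 fold change 2.42 ± 0.33 (SE) with an adjusted p of 0.000478). Irf7, a transcription factor of the interferon response, was at 1.15, 1.10 and 0.846 CPM and 5.43, 3.32 and 5.40 CPM (adjusted p = 0.022, and 0.065 with control mouse 4 left out, 0.0661 with control mouse 5 left out, 0.052 with control mouse 6 left out and 0.0688 with senescent mouse 4 left out). Isg15, a ubiquitin-like protein, and Ifit1, an RNA-binding protein, did not pass the test, with adjusted p of 0.0811 and 0.117, and both are single-transcript genes under 4 CPM in all samples. Among 43 Wnt ligands, receptors and targets 7 rose (16.3%, against 4.47% of all genes) and 0 fell (median 0.27). In a fit of only the 2 groups 3 rose, and 11 did with the correction for single-transcript share, length and GC content. Sfrp4, a secreted Wnt inhibitor, was at 0.170, 0.883 and 0.564 CPM and 4.73, 4.83 and 9.07 CPM (log2 fold change 3.46 ± 0.67 (SE) with an adjusted p of 0.00461). Lgr5, a receptor for R-spondins, was at 0.127, 0.294 and 0 CPM and 6.36, 3.53 and 0.578 CPM (adjusted p = 0.0055, 0.0928 without the 3 libraries that stand apart and 0.0766 with only the 2 groups), and the Wnt inhibitor Wif1 had 1 count over the control libraries and 0.799, 2.37 and 0.917 CPM in senescent MEFs. The target gene Axin2 was at 1.36, 2.34 and 6.63 CPM and 10.9, 10.3 and 4.76 CPM, with overlapping groups (adjusted p = 0.201).

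Of 29 genes of cholesterol synthesis and uptake 12 fell (41.4%, against 3.95% of all genes), 16 were not DEGs and 1, the exporter Abca1, rose (median −1.0). Abca1 (adjusted p = 0.0355) was not a DEG with any control mouse or senescent mouse 4 or 5 left out, with library 5(2) alone, in a fit of only the 2 groups or without the 3 libraries that stand apart. The sum of the list was 2259, 2310.2 and 2282 CPM in control and 1062, 949 and 1093 CPM in senescent MEFs, 2.21-fold lower. Hmgcs1 (ENSMUSG00000093930, chromosome 13, 120151915 to 120170470, plus strand), an early enzyme of the pathway, was at 231, 234 and 317 CPM in control and 96.0, 113 and 77.6 CPM in senescent MEFs (log2 fold change −1.45 ± 0.21 (SE) with an adjusted p of 0.000592), and Stard4, a sterol carrier, fell 8.83-fold (adjusted p = 0.000909). Both genes kept their call with each mouse left out, but not in the fit of only the 2 groups with the mouse as a block (adjusted p = 0.105 and 0.066). They share that loss with many genes above, since 65 of the DEGs named by rule were lost in that fit. Of 33 tested genes of the unfolded protein and integrated stress response 6 fell (18.2%, against 3.95% of all genes) and 2 rose (6.06%, against 4.47%). Without the 3 libraries that stand apart 3 fell and 1 rose. The count that rose was 1 with control mouse 4 and 0 with senescent mouse 6 left out. Those that fell were, except for the chaperone gene Pdia6, enzymes of serine, one-carbon and asparagine metabolism. Psat1, of serine synthesis, was at 758, 758 and 652 CPM and 105, 129 and 119 CPM (log2 fold change −2.62 ± 0.19 (SE) with an adjusted p of 7.66e-06), and Shmt2, of the mitochondrial one-carbon pathway, fell 2.96-fold (adjusted p = 0.000155). Ddit3, which encodes CHOP, was at 18.5, 22.4 and 18.9 CPM and 38.2, 39.1 and 78.4 CPM (adjusted p = 0.00808, 0.0517 with control mouse 4 left out and 0.0232 with senescent mouse 6 left out, which missed the fold threshold, and 0.159 without the 3 libraries that stand apart), while Atf4 (−0.37) and the chaperone gene Hspa5 (−0.65) were not DEGs.

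Of 44 tested NRF2 and antioxidant genes 3 rose (6.82%, against 4.47% of all genes) and 4 fell (9.09%, against 3.95%). Without control mouse 4 and in a fit of only the 2 groups, 2 fell. Slc7a11, the cystine transporter, fell 6.12-fold (adjusted p = 0.00118) and Mgst1, a microsomal glutathione transferase, rose 3.92-fold (adjusted p = 0.00576), while Hmox1, heme oxygenase, had a log2 fold change of 0.31 (adjusted p = 0.471). Of 35 glycolysis and hypoxia genes 1 was a DEG, which rose (2.86%, against 4.47% of all genes). The count that rose was 0 with control or senescent mouse 4 left out, 2 with control mouse 5 or 6 and 4 with senescent mouse 6 left out. It was 3 with library 5(1) alone and 2 with the mouse as a block. Ldha, lactate dehydrogenase, was at 2044, 2595 and 2203 CPM and 1903, 1871 and 2221 CPM. None of the 13 mitochondrially encoded genes was a DEG (0 in edgeR and in DESeq2, median 0.03), and mt-Co1, of cytochrome oxidase, was at 1778, 1650.0 and 1359.7 CPM and 1708, 1685 and 1987 CPM. Of 38 immediate early and ERK feedback genes 1 fell (2.63%, against 3.95% of all genes). Without the 3 libraries that stand apart 0 fell, and 2 did with control mouse 4 or 5 or senescent mouse 6 left out. Myc, at 119, 108 and 166 CPM and 57.1, 68.7 and 75.7 CPM, was lower without overlap but under the fold threshold (log2 fold change −0.96, adjusted p = 0.0077). Egr1 and Fos, early response factors, had adjusted p of 0.672 and 0.903.

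The DEGs with the largest increases among those reaching 10 CPM included genes outside the lists. Pamr1 (ENSMUSG00000027188, chromosome 2, 102380060 to 102473386, plus strand), a secreted protein with a peptidase domain, was at 0.637, 1.47 and 0.0470 CPM in control and 53.7, 49.3 and 40.4 CPM in senescent MEFs, the largest such increase (log2 fold change 5.89 ± 0.54 (SE) with an adjusted p of 3.23e-05). Penk, which encodes the opioid precursor proenkephalin, was at 0.807, 0.0982 and 0.0940 CPM and 18.8, 8.92 and 9.85 CPM (log2 fold change 5.31 ± 0.74 (SE) with an adjusted p of 0.000544). Prl2c3, a proliferin of the prolactin family whose near-identical copies make its value uncertain, was at 0.680, 0.196 and 0 CPM and 16.3, 7.89 and 7.68 CPM. Apoe, a lipid carrier of lipoproteins, was at 0.637, 1.43 and 1.74 CPM and 7.89, 18.1 and 41.0 CPM, a range in which senescent mouse 6 was the highest (log2 fold change 4.13 ± 0.72 (SE) with an adjusted p of 0.00256). Cox6b2, a testis form of a cytochrome oxidase subunit, rose 15.7-fold, and Fxyd6, a regulator of the sodium pump, 14.7-fold (adjusted p = 0.00634 and 0.00607, and 0.0677 and 0.0619 in the fit of only the 2 groups). By CPM gained, Cav1 (caveolin-1), Ccdc80 (a matrix protein), Ctsd, Timp2 and Cdkn1a led. Ccdc80 was at 529, 607 and 548 CPM and 1519, 1641 and 1205 CPM (log2 fold change 1.37 ± 0.18 (SE) with an adjusted p of 0.000391). Cav1 was at 586, 558 and 622 CPM and 1651, 1838 and 1044 CPM (adjusted p = 0.015), and the adjusted p was 0.0664 with control mouse 4 left out, 0.0689 with control mouse 5 left out, 0.0621 with senescent mouse 4 left out and 0.0603 with senescent mouse 5 left out, and 0.0747 without the 3 libraries that stand apart. By CPM lost, the tubulin genes Tubb5 and Tuba1b stood with Fbn1, Col6a3 and Psat1 among the 5 DEGs that lost most. Tuba1b was at 1229.5, 982 and 649.7 CPM and 341, 253 and 619.7 CPM (adjusted p = 0.0189), and the adjusted p was 0.0942 with control mouse 4 left out, 0.0615 with control mouse 5 left out, 0.0855 with senescent mouse 4 left out and 0.0698 with senescent mouse 5 left out. Tubb5 fell 2.00-fold, at the fold threshold, with a log2 fold change of −1.0, and with the mouse as a block it was under that threshold (adjusted p = 0.0398). Its adjusted p was 0.083 with control mouse 4 left out, 0.0621 with control mouse 5 left out, 0.0782 with senescent mouse 4 left out and 0.0704 with senescent mouse 5 left out.

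Some of the named genes share sequence with other transcripts. Ccnd1, Ccne2, Cnn1, Dusp6, E2f8, Fbn1, Hspa5, Kif20a, Orc2, Orc4, Pcna and Tdg have over 20% of their exonic bases opposite exons on the other strand. Whether the counting used strand is not stated in the sources used here, so reads of both genes could have been divided between them.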

How the data were processed

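RNA was sequenced from total RNA libraries (TruSeq Stranded Total RNA). Per the labels, the authors trimmed reads with Trimmomatic, aligned them with STAR 2.7.11b to GRCm39 (Ensembl 109) and deposited the expected counts of RSEM 1.3.1 per gene. The TPM values that RSEM gave were also deposited by the authors and served here only for marker genes. Expected counts were rounded, and libraries 5(1) and 5(2) of control mouse 5 were summed.

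Counts of 4 groups (control, senescent and 2 Fucoidan-FV doses) entered edgeR 4.0.16 (R 4.3.3) with TMM factors, a filter at a minimum count of 10 and the quasi-likelihood test, with Benjamini-Hochberg adjustment over 15034 genes. Alternatives were DESeq2 1.42.0, other filters, RLE factors, only the 2 groups, the mouse as a block, either library of mouse 5, a correction for gene properties, and each mouse left out. The labels give the mouse numbers that pair the groups, and deviations of same-numbered samples correlated at 0.24, −0.12 and −0.17. Those of differently numbered samples correlated at −0.29 to 0.28. Xist had 3219 counts in control and 3254 in senescent mouse 4 and at most 1 in the other libraries of these groups. The Y-linked gene Ddx3y had 0 counts in both mouse 4 libraries and 1782 to 3975 in the others. By these genes mouse 4 was female and mice 5 and 6 were male in both groups. The part of sex in the results was not tested. Labels name the mice and no separate cultures, so the p-values measure the spread between these samples.

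The members and the 29 gene lists were chosen with earlier results of these data known. Genes were named as anchors of a list, as the 3 largest DEGs of a list at 1 CPM or more, as the 10 largest increases and decreases at 10 CPM or more without overlap, or as the 5 DEGs that gained or lost most CPM. Beyond that rule, Cdkn2a, Psrc1, Ckap5, Ercc5, Abca1, Sema3e, Pdia6, Cenpc1, Cenpt, Cenpx, Lmna, Suz12, Eed and the licensing genes that were not DEGs were named after their values were seen. Gene coordinates and biotypes are those of GENCODE M39 on GRCm39, and promoters are from a RefSeq table. Some genes of the lists are not reported here by name.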

Additional observations from a re-analysis of the deposited data

How the results depend on the processing

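The DEG count of 1266 lay between 908 and 1720 in all alternatives but the fits of only the 2 groups, with DESeq2 at 1720, no filter on low counts at 1498 and the 3 libraries that stand apart left out at 908. A fit of only the 2 groups gave 699 DEGs, of which 249 rose. With the replicate block, pairing groups by mouse, 1137 genes were DEGs, and with the block and only the 2 groups 174, of which 45 rose and 129 fell. The correction for single-transcript share, length and GC content raised the number that fell to 982, and to 975 with the block. With each mouse left out, 911 to 1456 genes were DEGs, 418 to 799 of them higher, the lowest without control mouse 4. Of the DEGs named by rule, 7 were lost with the block, 22 with only the 2 groups, 65 with both, 27 without the 3 libraries and 7 to 19 with a mouse left out. The cause was not tested. With 3 mice a side, 118 of 200 genes simulated at a log2 change of 2 were recovered.

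None of the DEGs named by rule changed direction under any alternative run. Among the genes named by rule, the log2 fold changes that changed sign belong to genes that were not DEGs. With library 5(1) alone for control mouse 5, they were 0.041 for Acta2, 0.27 for Bcl2, 0.045 for Col1a1, 0.15 for Igfbp5 and 0.30 for Xrcc5. With library 5(2) alone, they were 0.018 for Col4a1, 0.14 for Ercc1 and −0.16 for Fos. With both libraries as separate samples, the value was 0.023 for Col4a1. With the replicate block, they were 0.011 for Acta2, 0.033 for Col4a1, −0.20 for Fos, −0.13 for Inhba, 0.21 for Nqo1 and 0.0039 for Xrcc5. With the block and only the 2 groups, they were 0.019 for Col4a1, −0.091 for Inhba and 0.13 for Nqo1. With the correction for single-transcript share, length and GC content, they were −0.10 for Bax, −0.088 for Fos, −0.13 for Inhba, −0.13 for Tagln, −0.073 for Xpc and −0.20 for mt-Co1. With that correction and the block, they were −0.093 for Bax, −0.28 for Fos, −0.29 for Inhba, −0.14 for Tagln, −0.023 for Xpc and −0.10 for mt-Co1. Without the 3 libraries that stand apart, an alternative added after the data were seen, they were 0.14 for Col4a1, 0.068 for Dusp6, 0.074 for Ercc1, −0.14 for Fos, −0.032 for Hgf and −0.078 for mt-Co1. With each mouse left out in turn, the ranges that crossed 0 were −0.15 to 0.12 for Acta2, −0.22 to 0.14 for Bcl2, −0.072 to 0.46 for Ccl2, −0.28 to 0.13 for Cnn1, −0.20 to 0.24 for Col4a1, −0.32 to 0.069 for Dusp6, −0.36 to 0.16 for Ercc1, −0.56 to 0.78 for Fos, −0.44 to 0.14 for Igfbp5, −0.12 to 1.40 for Il6, −0.27 to 0.54 for Inhba, −0.67 to 1.00 for Nqo1, −0.18 to 0.36 for Tagln, −0.041 to 0.26 for Xpc and −0.54 to 0.28 for Xrcc5.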
